A study of Mus musculus with 12 samples.

Results

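Bone marrow of C57BL/6N mice labelled MI, for myocardial infarction, was compared with bone marrow of mice labelled Sham, neither of which was given EMPA. The comparison took the 3 MI libraries and the 3 Sham libraries, 6 of the 12 in the series, and all genes were described. The other 6 libraries are 3 Sham-E (Sham with EMPA) and 3 MI-E (MI with EMPA), and they entered the model to share in the estimate of the spread; they are also shown beside single genes, and 1 test asked whether the difference changed with EMPA. Infarction was made by tying off the left anterior descending coronary artery through a small opening of the left chest under isoflurane. The labels describe this ligation once for all samples and give no separate account of the sham operation. Nothing used here states age, sex, time after surgery or the number of mice behind a library. The p-values below therefore measure the spread between these libraries, which may be technical. Libraries are called by the numbers in the deposited column names, so that Sham 1, 3 and 4 and MI 1, 2 and 3 were compared.

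Bone marrow makes the neutrophils, monocytes, red cells and platelets of the blood and the B lymphocytes up to the immature stage. Neutrophils mature there through precursors with primary granules, then forms with secondary granules, then forms with chemoattractant receptors that can be released. B cells start from progenitors that recombine their immunoglobulin genes with the Rag1 and Rag2 recombinase under the factors Ebf1, Pax5 and Tcf3. After an infarction of the heart, marrow output of neutrophils and monocytes is known to increase, and stress hormones are known to lower early B cells. In bulk marrow, fewer cells of a type and less RNA per cell cannot be told apart.

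Each library held 21175087 to 24606783 counts. The insert length, recovered from the deposited values, was 263 to 265 bp in MI and 284 to 287 bp in Sham. In Sham-E it was 271 to 280 bp and in MI-E 280 to 283 bp, so the MI libraries lay below all 9 others. Insert length and group therefore cannot be told apart. Mitochondrial genes took 2.23% to 3.58% of counts in MI and 1.49% to 1.67% in Sham. The haemoglobin share was 1.02% to 3.62% in MI and 1.61% to 2.21% in Sham. Gene by gene, Sham libraries correlated with each other at 0.991 to 0.992 and MI libraries at 0.961 to 0.980. The library Sham-E 1 stood apart from the rest of its group: Rag1 was at 1.21 CPM (counts scaled to a common library total) there and at 185 and 207 CPM in the other Sham-E libraries. It is not part of the comparison, but it shares the estimate of the spread, so counts of calls are also given without it.

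Of 15119 genes tested, 63 (0.417%) passed an adjusted p of 0.05 in edgeR's quasi-likelihood test. Of these, 34 (0.225%) rose and 29 (0.192%) fell in MI. Protein-coding genes made up 29 of those that rose and 20 of those that fell. The smallest change among the 63 was 0.58 on the log2 scale, or 1.5-fold. Before adjustment 2945 genes (19.5%) had a p under 0.05. The 3 MI libraries lay entirely above the 3 Sham libraries for 2030 genes (13.4%) and entirely below them for 2093 (13.8%), together 4123 (27.3%). The fold change was above 0 for 7928 genes (52.4%) and below 0 for 7191 (47.6%). The median log2 fold change over all genes was 0.02. Total counts in place of TMM scaling moved that median to -0.10 and the split of calls to 23 rising and 81 falling. On log2(TPM + 1) values the split was 44 rising and 238 falling.

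The number of calls changed with the libraries in the fit. Without Sham-E 1 it was 1224 of 15496 genes (7.90%), 638 (4.12%) rising and 586 (3.78%) falling, among them all 63. With only the 6 MI and Sham libraries it was 344 of 14402 (2.39%), 166 (1.15%) rising and 178 (1.24%) falling, and 56 of the 63 were among them. It was 1 without Sham 1, 3 without Sham 3, 1 without Sham 4, 12 without Sham-E 2, 122 without Sham-E 3, 115 without MI 1, 285 without MI 2 and 7 without MI 3. Without MI-E 2, 3 or 4 it was 6, 33 or 9. Of the 63 genes, 24 had all 3 MI libraries above all 9 others and 24 had them below all 9. Over all genes tested these numbers were 299 (1.98%) and 337 (2.23%). The 63 were picked by the difference between these same MI and Sham libraries, which overlapped for 0 of them. Their higher share was thus set in part by that choice.

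Genes that fell were richer in G and C. The median GC content of the transcript was 56.2% for those that fell, 47.5% for those that rose and 50.5% for all genes. In 5 equal groups of genes by increasing GC content the median log2 fold change was 0.12, 0.06, 0.03, -0.02 and -0.10. The group with the highest GC content held 16 of the genes that fell and 2 of those that rose. With an offset for GC content and length in each library, 124 genes passed, 60 of the 63 among them. The part of insert length and of GC content in the single results below was not tested further.

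Several receptors of myeloid cells were among the genes that rose. Clec4a2, an inhibitory C-type lectin receptor of dendritic cells and other myeloid cells (chr6:123106428-123143999), was at 115, 113 and 112 CPM in Sham and at 226, 215 and 205 CPM in MI. No MI library came near the Sham range, and the log2 fold change was 0.92 ± 0.15 (SE, adjusted p = 0.0309). Its neighbour Clec4a1 (chr6:122921848-122934619) was at 23.9, 25.4 and 23.1 CPM in Sham and at 47.7, 53.3 and 50.7 CPM in MI. The groups did not overlap, and the log2 fold change was 1.07 ± 0.17 (adjusted p = 0.0309). Clec4a1 and Clec4a2 are similar genes whose reads may be shared in part.

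Gpr65, a receptor that senses acid outside the cell, was at 24.1, 31.0 and 27.9 CPM in Sham and at 48.6, 62.2 and 54.9 CPM in MI (log2 fold change 1.00 ± 0.15, adjusted p = 0.0309). Gpr141, an orphan receptor, was at 72.3, 67.7 and 69.0 CPM in Sham and at 116, 126 and 112 CPM in MI (0.76 ± 0.12, adjusted p = 0.0309). For both receptors every MI library was above all 9 others, EMPA groups included. Samsn1, an adaptor protein of blood cells, rose from 74.9, 69.0 and 65.0 CPM to 119, 128 and 153 CPM (0.94 ± 0.13, adjusted p = 0.0258). The formyl peptide receptor gene Fpr2, which lets neutrophils move towards bacterial and mitochondrial peptides, rose by 1.18 ± 0.20 (adjusted p = 0.0352). Wfdc21, a small secreted protein of neutrophils, rose by 1.76 ± 0.23 (adjusted p = 0.0160), from 183 ± 9.63 CPM to 621 ± 122 CPM (SD, n = 3).

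Further receptors passed with higher p-values and were singled out after their values were seen. Cd33, a sialic acid receptor of myeloid cells, was at 277, 249 and 224 CPM in Sham and at 389, 467 and 563 CPM in MI (0.92 ± 0.17, adjusted p = 0.0383). Milr1, an inhibitory receptor of mast cells and other myeloid cells, was at 39.5, 39.5 and 34.1 CPM in Sham and at 75.6, 79.1 and 63.6 CPM in MI (0.95 ± 0.17, adjusted p = 0.0383). Both sets of MI libraries lay above all 9 others. Tlr13, which senses bacterial ribosomal RNA, was at 107, 82.4 and 78.3 CPM in Sham and at 135, 175 and 164 CPM in MI (0.83 ± 0.15, adjusted p = 0.0383). Il18rap, a chain of the interleukin-18 receptor, was at 146, 123 and 116 CPM in Sham and at 260, 210 and 295 CPM in MI (0.99 ± 0.19, adjusted p = 0.0438). Il6ra, the interleukin-6 receptor chain that binds the cytokine, was at 96.9, 109 and 120 CPM in Sham and at 185, 195 and 184 CPM in MI (0.79 ± 0.15, adjusted p = 0.0471). None of these receptors had an MI library within the Sham range.

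Across the list of 37 innate receptors tested, 4 rose (Clec4a2, Fpr2, Fpr1 and Tlr13) and none fell by the edgeR test. The median log2 fold change was 0.55, beside 0.02 over all genes, and 30 of 37 were positive. For 20 (54.1%) all MI libraries were above all Sham libraries, beside 13.4% of all genes tested. Without Sham-E 1, 12 of the 37 rose (32.4%), and with only the 6 libraries 8 rose, beside 4.12% and 1.15% of all genes tested. Fcer1g, the signalling chain shared by activating Fc receptors, was at 174, 206 and 172 CPM in Sham and at 382, 358 and 276 CPM in MI (0.88 ± 0.17, adjusted p = 0.0519), so it missed the threshold without overlapping.

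**Figure D1:**
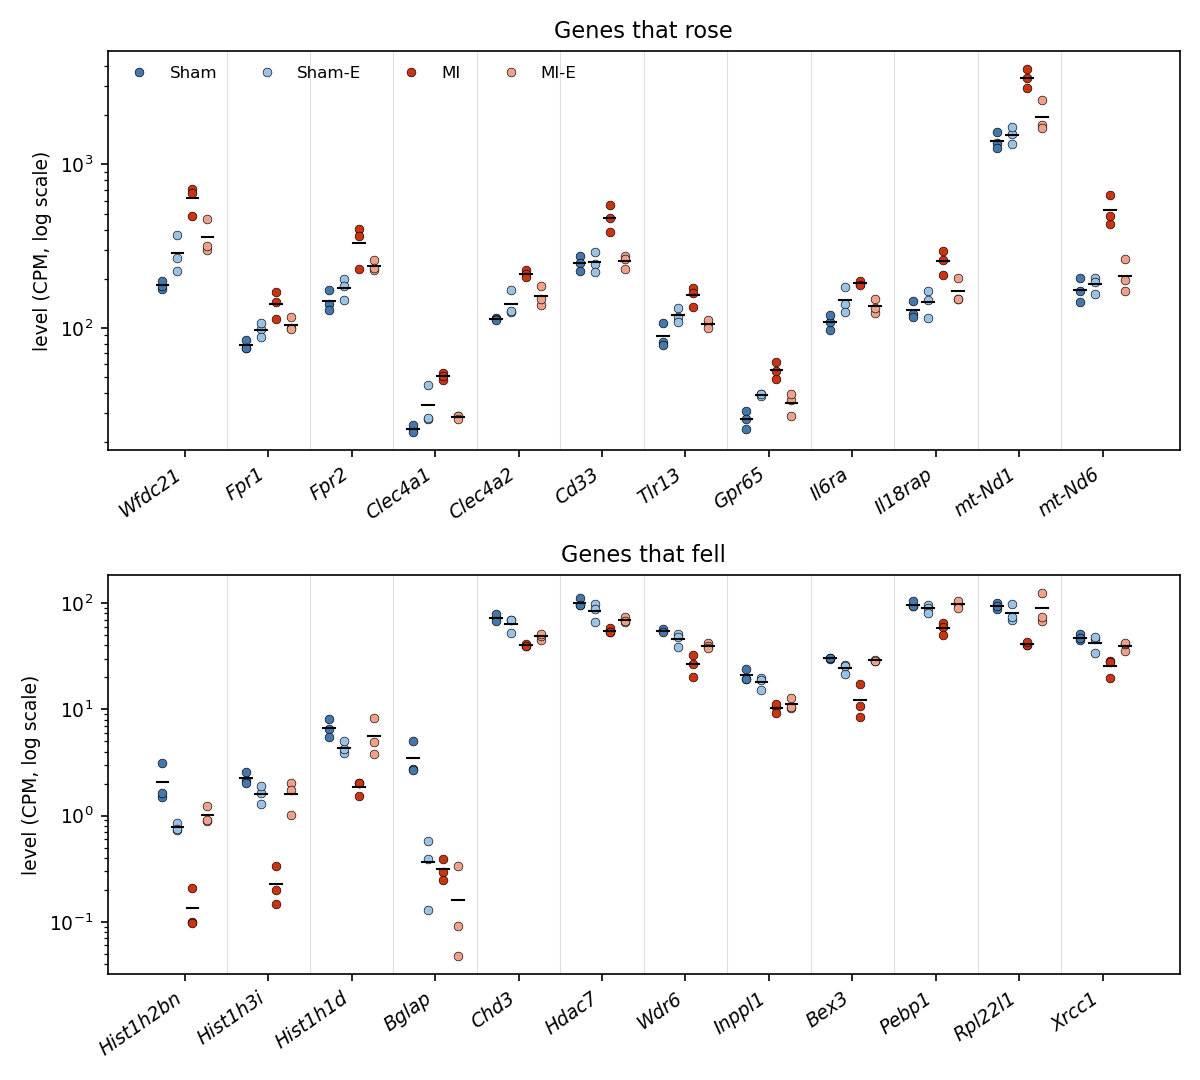
Level in CPM (log axis) of 12 genes that rose and 12 that fell, one point per library and a bar at the mean of 3 libraries in each of the 4 groups. The MI points of Clec4a1, Gpr65 and Il6ra lie above every other library, and those of Hist1h3i and Rpl22l1 lie below every other library.

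Promoter sequences from RefSeq (GRCm38.p6, 250 bases before to 50 after the start) matched 39 of the 63 called genes and 10801 of the 15119 tested. The letters GAGGAAGT, a purine-rich stretch of the type bound by the myeloid and B-cell factor PU.1, were searched on both strands. They were in 4 of 24 promoters of genes that rose (16.7%), in 0 of 15 of genes that fell, and in 370 of all 10801 (3.43%). The window of each of the 4 is printed because these genes rose together and share the letters. Each stretch of 120 bases is given 5′ to 3′ along the gene's strand, with the match, or its reverse complement, in capitals.
Samsn1, chr16:75909267-75909386, minus strand: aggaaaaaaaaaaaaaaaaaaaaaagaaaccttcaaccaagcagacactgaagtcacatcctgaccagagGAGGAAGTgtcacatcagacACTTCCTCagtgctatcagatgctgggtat
Il18rap, chr1:40515242-40515361, plus strand: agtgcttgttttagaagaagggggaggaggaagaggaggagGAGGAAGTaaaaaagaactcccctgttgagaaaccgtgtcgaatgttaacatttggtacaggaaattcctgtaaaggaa
Ndufs4, chr13:114388095-114388214, minus strand: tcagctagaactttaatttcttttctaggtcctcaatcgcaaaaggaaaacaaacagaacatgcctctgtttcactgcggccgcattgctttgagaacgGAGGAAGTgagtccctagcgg
Gm19951, chr12:99642976-99643095, plus strand: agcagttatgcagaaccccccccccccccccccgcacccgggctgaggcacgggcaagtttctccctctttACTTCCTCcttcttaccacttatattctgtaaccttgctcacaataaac
Samsn1 held the letters 2 times, once on each strand, and the other windows held them once. The TATA box letters TATAAA were in 6 of 24 promoters of genes that rose (25%), 2 of 15 of genes that fell (13.3%) and 790 of all (7.31%). The letters TTGCNNAA, of the type bound by C/EBP factors of granulocytes, were in 2 of 24 (8.33%), 0 of 15 and 919 of all (8.51%). The letters CCAAT were in 6 of 24 (25%), 7 of 15 (46.7%) and 4176 of all (38.7%). The octamer ATTTGCAT was in 2 of 24 (8.33%), 0 of 15 and 149 of all (1.38%), and the cyclic AMP response letters TGACGTCA in 0 of 24, 1 of 15 (6.67%) and 334 of all (3.09%). These 6 motifs were each searched on both strands and counted separately, also where they overlapped. A match of letters is a description of the sequence and not a bound site.

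Secretory and granule genes of neutrophils were mostly higher in MI, although few passed the test. Of 29 mature neutrophil markers tested, 3 rose, 24 were positive and the median log2 fold change was 0.57. MI lay above Sham without overlap for 14 (48.3%) and below for 1 (3.45%), beside 13.4% and 13.8% of all genes tested. Without Sham-E 1, 10 rose (34.5%), and with only the 6 libraries 6 rose, beside 4.12% and 1.15% of all genes tested. Of 20 markers of immature neutrophils with secondary granules, 0 rose in the fit of 12 libraries, 10 (50%) had MI above Sham and the median was 0.58. Without Sham-E 1, 8 of the 20 rose (40%), and with only the 6 libraries 4 rose. The mean level of the mature list, as log2(CPM + 0.5), was 7.99, 8.22 and 7.33 in MI and 7.16 to 7.2 in Sham, so MI 3 was only just above Sham. The same level in Sham-E 1 was 8.14.

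Ifitm6, a member of the interferon-induced transmembrane family found in myeloid cells, was at 472, 405 and 354 CPM in Sham and at 1604, 1685 and 1450 CPM in MI. The log2 fold change was 1.95 ± 0.44 with an adjusted p of 0.0629. Lcn2, the siderophore-binding protein of secondary granules, was at 2020, 2098 and 1717 CPM in Sham and at 5626, 5015 and 3065 CPM in MI (1.23 ± 0.31, adjusted p = 0.0784). Anxa1, an anti-inflammatory protein of neutrophils, was at 1235 ± 115 CPM in Sham and at 2730 ± 381 CPM in MI (SD, n = 3, adjusted p = 0.0753). The MI and Sham libraries of these genes did not overlap, and none of the tests passed.

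The most abundant neutrophil mRNAs differed less. S100a8 and S100a9, the calprotectin subunits, had log2 fold changes of 0.30 (adjusted p = 0.578) and 0.32 (adjusted p = 0.545), and MI 3 lay below the Sham libraries in both. Ltf, lactoferrin, was at 6536, 8215 and 2337 CPM in MI and at 4850, 4964 and 4116 CPM in Sham. The azurophil granule genes Elane and Mpo, which mark early precursors, had log2 fold changes of -0.21 (adjusted p = 0.761) and -0.37 (adjusted p = 0.572). Of the 16 early granulocyte markers tested, 0 passed, and the median was -0.07.

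The whey acidic protein and stefin family, protease inhibitors made largely by neutrophils, had the highest median of the 53 lists. Of 9 members tested 1 rose, Wfdc21, all 9 were positive, the lowest at 0.06, and the median was 1.88. MI lay above Sham without overlap for 5 (55.6%), beside 13.4% of all genes tested. Wfdc21, Stfa1, Stfa2, Stfa3, Stfa2l1 and BC100530 are also in the mature neutrophil list, so these lists are not independent. The mean level, as log2(CPM + 0.5), was 3.17 to 3.89 in Sham and 4.44 to 5.49 in MI. It was 4.80 to 5.76 in MI-E and 6.10, 3.49 and 3.65 in Sham-E. Without Sham-E 1, 5 rose (55.6%), and with only the 6 libraries 4 rose, beside 4.12% and 1.15% of all genes tested. Wfdc17 was at 17.7, 20.1 and 26.5 CPM in Sham and at 163, 158 and 118 CPM in MI, with a log2 fold change of 2.77 ± 0.51 and an adjusted p of 0.0502. The stefin Stfa2l1 was at 17.7 ± 6.02 CPM in Sham and at 70.4 ± 27.6 CPM in MI (SD, n = 3, adjusted p = 0.0989). The stefins are near copies of each other, so their separate levels are uncertain. Only 9 of 25 entries reached the count filter.

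Monocyte markers were mixed. Of 23 tested, 0 passed and the median was 0.17. MI lay above Sham for 6 (26.1%) and below for 2 (8.7%), beside 13.4% and 13.8% of all genes tested. Without Sham-E 1, 5 rose (21.7%) and 1 fell (4.35%), beside 4.12% and 3.78% of all genes tested. With only the 6 libraries 1 rose and 0 fell. Vcan, versican, a matrix proteoglycan of classical monocytes, was at 33.1, 23.9 and 22.2 CPM in Sham and at 308, 228 and 293 CPM in MI (3.39 ± 0.94, adjusted p = 0.103, or 3.36e-06 without Sham-E 1). Cx3cr1, the fractalkine receptor of patrolling monocytes, was at 36.4, 43.5 and 35.4 CPM in Sham and at 17.2, 21.4 and 5.87 CPM in MI (-1.37 ± 0.35, adjusted p = 0.0822). The 20 macrophage markers had a median of 0.27 and 0 passed. Their median was -0.04 without MI 3, in which Hmox1, the haem-degrading enzyme, was at 602 CPM against 269 and 261 CPM in the other MI libraries.

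Among genes for energy supply, those of the mitochondrial genome were higher in every MI library. Of 7 tested of 13, 2 rose, mt-Nd6 and mt-Nd1, and the median log2 fold change was 0.98. All 7 had MI above Sham without overlap, beside 13.4% of all genes tested. Without Sham-E 1, 6 of the 7 rose (85.7%), and with only the 6 libraries 2 rose, beside 4.12% and 1.15% of all genes tested. The subunit of cytochrome oxidase mt-Co1 was at 7859, 7205 and 7632 CPM in Sham and at 12606, 19358 and 12213 CPM in MI (0.96 ± 0.24, adjusted p = 0.0761). With the offset for GC content and length the median of the 7 was 0.79.

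Of 87 nuclear genes of the respiratory chain and ATP synthase, 2 rose: Ndufs4 and Ndufa8, both parts of complex I. Ndufs4 was at 33.7, 32.9 and 33.5 CPM in Sham and at 55.2, 49.4 and 48.5 CPM in MI (0.61 ± 0.12, adjusted p = 0.0465). Ndufa8 was at 33.5 ± 0.819 CPM in Sham and at 52.4 ± 4.25 CPM in MI (SD, n = 3, adjusted p = 0.0471). The median of the 87 was 0.10, beside 0.02 over all genes.

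Glycolysis, the lysosome and the proton pump that acidifies it showed small shifts. Of 23 glycolysis genes, 20 were positive and 0 were past the threshold, with a median of 0.34. MI lay above Sham for 11 (47.8%), beside 13.4% of all genes tested. Without Sham-E 1, 6 rose (26.1%), and with only the 6 libraries 1 rose, beside 4.12% and 1.15% of all genes tested. Ldha, lactate dehydrogenase A, was at 476, 436 and 436 CPM in Sham and at 768, 716 and 627 CPM in MI (0.65 ± 0.24, adjusted p = 0.166). All 16 tested subunits of the vacuolar proton pump were positive, with a median of 0.33. Of these, 3 rose without Sham-E 1 (18.8%) and 0 rose with only the 6 libraries. Atp6v1h was at 51.6, 47.0 and 50.8 CPM in Sham and at 70.4, 68.5 and 85.6 CPM in MI (0.59 ± 0.12, adjusted p = 0.0554). Of 30 lysosome and autophagy genes, 25 were positive and 13 (43.3%) had MI above Sham, with a median of 0.21. Lamp1, a main membrane protein of lysosomes, was at 421 ± 3.48 CPM in Sham and at 633 ± 82.2 CPM in MI (SD, n = 3, adjusted p = 0.0822).

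Of 83 ribosomal protein genes 1 rose, Rpl35a, and 1 fell, Rpl22l1, and the median was 0.12. Rpl22l1, a variant of the large-subunit protein Rpl22 (chr3:28805436-28807424), was at 101, 88.5 and 94.6 CPM in Sham and at 40.4, 40.4 and 43.4 CPM in MI. The MI libraries were below all 9 others, and the log2 fold change was -1.19 ± 0.21 (adjusted p = 0.0366).

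Genes of other functions rose as well. Creb3, a transcription factor held in the endoplasmic reticulum, rose from 22.6, 21.9 and 20.1 CPM to 38.9, 38.8 and 36.9 CPM (0.83 ± 0.14, adjusted p = 0.0330). Arpc1a, a subunit of the complex that branches actin, rose from 85.7, 87.9 and 83.5 CPM to 130, 121 and 148 CPM (0.64 ± 0.11, adjusted p = 0.0366). Slco4c1, an organic anion transporter, rose from 41.4, 37.1 and 37.1 CPM to 61.8, 66.4 and 66.9 CPM (0.76 ± 0.12, adjusted p = 0.0309).

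Early B-lineage genes were lower in MI as a group. All 22 tested were negative and the median log2 fold change was -1.30, but 0 of 22 passed in the fit of 12 libraries. MI lay below Sham without overlap for 19 (86.4%), beside 13.8% of all genes tested. Without Sham-E 1, 16 of 22 fell (72.7%), beside 3.78% of all genes tested. With only the 6 libraries 10 of 22 fell, beside 1.24%. The mean level of the list was 5.87, 6.19 and 6.19 in Sham and 4.58, 5.15 and 5.0 in MI, as log2(CPM + 0.5). In Sham-E 1 it was 3.28, against 5.92 and 5.90 in the other Sham-E libraries.

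Tcf3, which encodes the E proteins that open the B-cell programme, was at 321, 362 and 347 CPM in Sham and at 169, 155 and 164 CPM in MI (-1.08 ± 0.30, adjusted p = 0.0998). Pax5, which commits cells to the B lineage, was at 168, 221 and 181 CPM in Sham and at 58.0, 109 and 89.3 CPM in MI (-1.15 ± 0.31, adjusted p = 0.0951). Lef1, a factor of pro-B and pre-B cells, was at 24.1 ± 2.97 CPM in Sham and at 8.23 ± 1.36 CPM in MI (SD, n = 3, adjusted p = 0.0797). In all of these the highest MI library was below the lowest Sham library. Rag1 was at 125, 254 and 260 CPM in Sham and at 23.4, 110 and 34.6 CPM in MI (-1.93 ± 1.11, adjusted p = 0.358).

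Genes of later B cells were lower by less. Of 24 mature B cell markers, 0 passed, 15 (62.5%) had MI below Sham, beside 13.8% of all genes tested, and the median was -0.63. Without Sham-E 1, 9 fell (37.5%), and with only the 6 libraries 3 fell, beside 3.78% and 1.24% of all genes tested. Cd79a, a signalling chain of the B-cell receptor, was at 221, 338 and 236 CPM in Sham and at 138, 98.9 and 76.1 CPM in MI (-1.34 ± 0.30, adjusted p = 0.0607). Ms4a1, which encodes CD20, had a log2 fold change of -0.55 (adjusted p = 0.388), with MI 2 at 125 CPM inside the Sham range of 102 to 145 CPM. Sdc1, syndecan-1 of plasma cells, was at 18.9, 22.4 and 20.1 CPM in Sham and at 5.5, 8.38 and 6.56 CPM in MI (-1.59 ± 0.37, adjusted p = 0.0668). The 18 plasma cell markers had a median of -0.45, with 13 negative and 5 positive. MI lay below Sham for 6 (33.3%) and above for 2 (11.1%), beside 13.8% and 13.4% of all genes tested. Without Sham-E 1, 3 fell (16.7%) and 1 rose (5.56%), which was Xbp1 (0.58, edgeR adjusted p = 0.0209). With only the 6 libraries 2 plasma cell markers fell and 0 rose.

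Of 78 light chain V segments tested, 3 fell (Iglv2, Igkv2-137 and Igkv1-117), 72 were negative, and the median was -0.78. Igkv2-137 was at 5.72, 4.68 and 5.60 CPM in Sham and at 1.72, 2.18 and 1.38 CPM in MI. Of 76 heavy chain V segments 0 passed, and the median was -0.43. With the offset for GC content and length these medians were -0.56 and -0.19. Reads of similar V segments may be split between them, so single segments are uncertain. T-cell markers had a median of 0.10, and natural killer markers had a median of -0.21, with 0 past the threshold in either list.

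**Figure D2:**
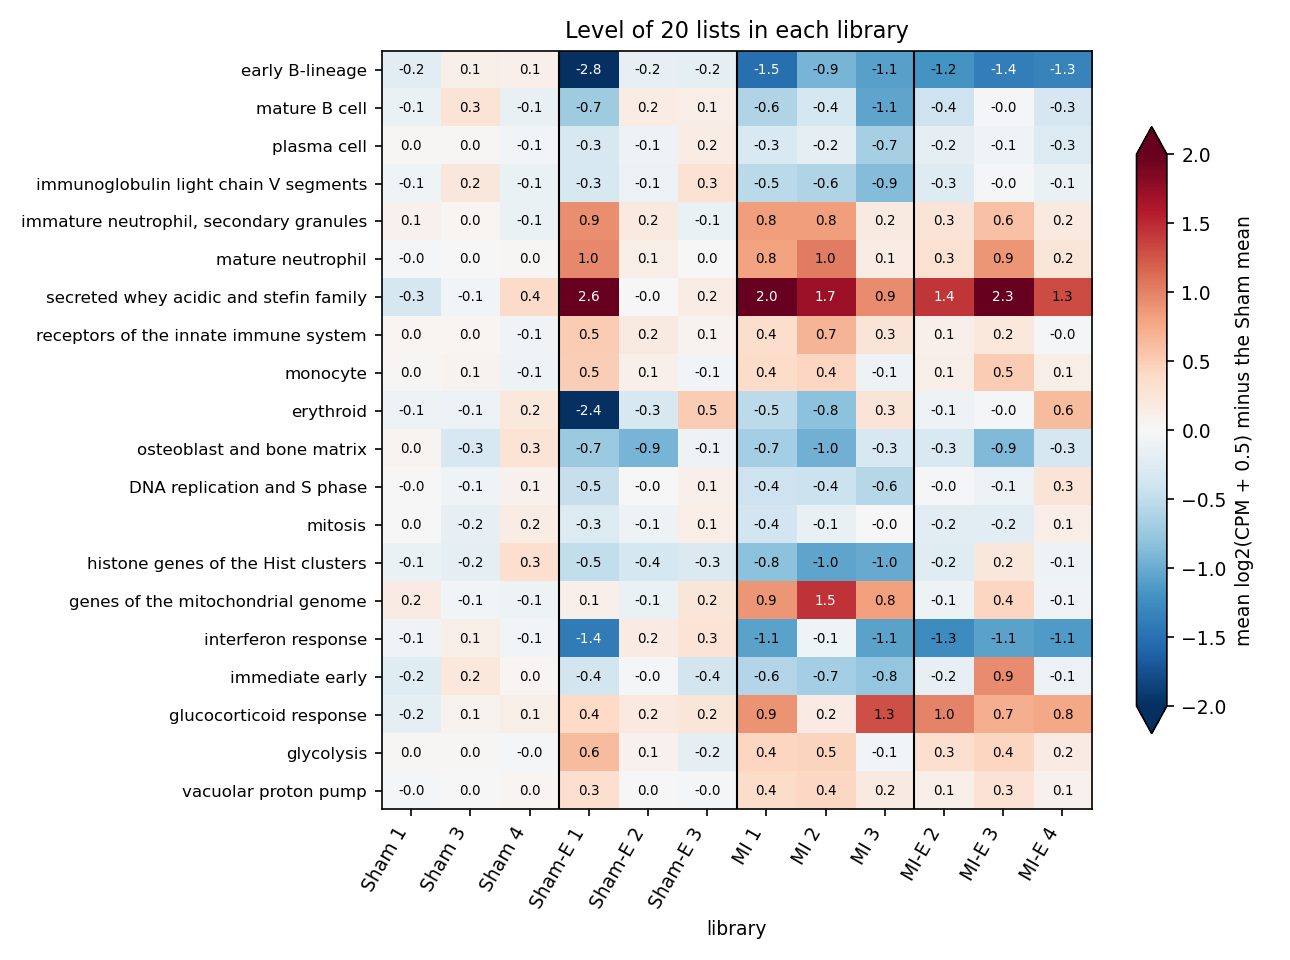
Mean log2(CPM + 0.5) of 20 gene lists in each of the 12 libraries, as the difference from the Sham mean, with rows for lists and columns for libraries. The early B-lineage row is low in all MI libraries and lowest in Sham-E 1, and the row of mitochondrial genes is high in MI 1, 2 and 3.

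Histone genes of the Hist clusters had the lowest median of the 53 lists. These genes are copied into mRNA during DNA synthesis, and their mRNAs end in a stem-loop in place of a poly(A) tail; no source used here states whether the libraries were selected for poly(A). Of 67 Hist genes 56 were tested, 52 were negative, and the median log2 fold change was -1.41. MI lay below Sham for 40 (71.4%) and above for 2 (3.57%), beside 13.8% and 13.4% of all genes tested. Of the 56, 5 fell: Hist1h2bn, Hist1h3i, Hist1h1d, Hist1h4a and Hist1h2bg. Without Sham-E 1, 22 fell (39.3%), and with only the 6 libraries 5 fell, beside 3.78% and 1.24% of all genes tested.

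Hist1h2bn (chr13:21754123-21754503) was at 1.49, 1.64 and 3.10 CPM in Sham and at 0.210, 0.0991 and 0.0987 CPM in MI (-3.86 ± 0.50, adjusted p = 0.0160). Hist1h3i (chr13:21782960-21783370) was at 2.18, 2.01 and 2.58 CPM in Sham and at 0.336, 0.198 and 0.148 CPM in MI (-3.26 ± 0.43, adjusted p = 0.0160). Hist1h1d, a linker histone, was at 6.53, 5.46 and 8.06 CPM in Sham and at 2.02, 1.54 and 2.02 CPM in MI (-1.84 ± 0.31, adjusted p = 0.0330). In each of them the MI libraries were below all 9 others. Hist1h4a had 55 counts over the Sham libraries and 1 over the MI libraries, a 48.4-fold ratio after scaling with a 95% exact counting interval of 8.34 to 1947.

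Negative medians were found for each kind of histone, and no test compared the kinds. The median log2 fold change was -1.44 for 5 linker H1 genes, -1.39 for 12 H2A genes, -1.55 for 15 H2B genes, -1.51 for 11 H3 genes and -1.36 for 13 H4 genes. Summed by kind, H1 genes were at 143, 145 and 209 CPM in Sham and at 101, 80.3 and 139 CPM in MI, while H3 genes were at 24.9, 21.5 and 34.1 CPM in Sham and at 11.9, 11.2 and 8.49 CPM in MI. Summed over the 56 genes, the level was 335, 326 and 488 CPM in Sham and 224, 191 and 261 CPM in MI. The sum was 269, 322 and 337 CPM in Sham-E and 337, 561 and 395 CPM in MI-E, so all MI libraries were below all 9 others. The genes are near copies of each other, so single members are less certain than the sum.

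**Figure D3:**
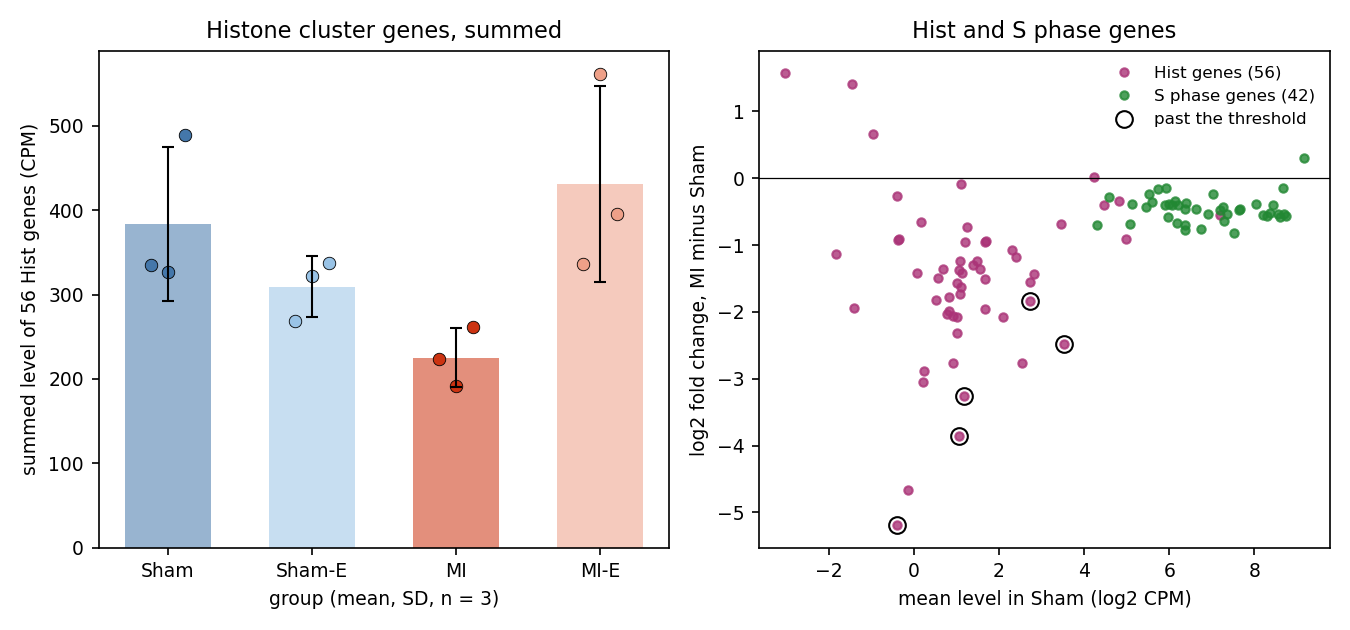
Left, summed CPM of 56 Hist genes in each library with the mean and SD of each group (n = 3); right, log2 fold change by mean Sham level for 56 Hist genes and 42 S phase genes. The 3 MI sums, 191 to 261 CPM, lie below the other 9, and 5 Hist genes are ringed as past the threshold.

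DNA replication genes were lower by a smaller amount. Of 42 tested 0 passed, 41 were negative and the median was -0.46. MI lay below Sham without overlap for 32 (76.2%), beside 13.8% of all genes tested. Without Sham-E 1, 14 of the 42 fell (33.3%), and with only the 6 libraries 3 fell, beside 3.78% and 1.24% of all genes tested. Lig1, the ligase that joins Okazaki fragments, was at 187, 177 and 189 CPM in Sham and at 120, 107 and 85.9 CPM in MI (-0.82 ± 0.17, adjusted p = 0.0549). Pold1, the catalytic subunit of DNA polymerase delta, was at 156 ± 4.70 CPM in Sham and at 100 ± 11.4 CPM in MI (SD, n = 3, adjusted p = 0.0628). Of 36 mitosis genes 0 passed, and the median was -0.21. MI lay below Sham for 4 of them (11.1%), beside 13.8% of all genes tested. The early B-lineage list, whose cells divide often, was lower in the same libraries, and its part in the replication and histone values was not tested.

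Chd3, Hdac7 and Wdr6 were among the other genes that fell. Chd3, a helicase of the NuRD deacetylase complex (chr11:69343273-69369406), was at 72.0, 78.6 and 68.1 CPM in Sham and at 39.2, 41.5 and 39.6 CPM in MI (-0.86 ± 0.13, adjusted p = 0.0309). Hdac7, a class IIa histone deacetylase of lymphocytes, was at 95.3, 111 and 95.8 CPM in Sham and at 58.2, 53.1 and 53.8 CPM in MI (-0.87 ± 0.15, adjusted p = 0.0330). Wdr6, a cofactor of tRNA methylation, was at 54.1, 57.2 and 52.9 CPM in Sham and at 26.8, 32.8 and 20.1 CPM in MI (-1.04 ± 0.17, adjusted p = 0.0309). All 3 MI libraries were below all 9 others for Chd3, Hdac7 and Wdr6. The GC content of these transcripts was 56.6%, 59.8% and 57.2%, above the 50.5% of all genes.

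Inppl1, the lipid phosphatase SHIP2, fell and was at 19.3, 24.1 and 19.2 CPM in Sham and at 10.6, 11.3 and 9.18 CPM in MI (-1.01 ± 0.17, adjusted p = 0.0330). Pebp1, an inhibitor of the kinase Raf, was at 93.2, 93.9 and 104 CPM in Sham and at 65.0, 59.4 and 50.4 CPM in MI (-0.74 ± 0.13, adjusted p = 0.0366). Xrcc1, the scaffold of single-strand break repair, which was singled out after its values were seen, was at 44.5, 50.7 and 46.9 CPM in Sham and at 28.6, 28.0 and 19.8 CPM in MI (-0.90 ± 0.17, adjusted p = 0.0471). For Pebp1 and Xrcc1 the MI libraries were below all 9 others. For Inppl1 they were not, since the MI-E libraries were also low. Bex3, Clstn3, Slc9a7 and Zfhx2 fell by 1.3, 1.63, 1.41 and 1.53 on the log2 scale.

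Interferon and glucocorticoid responses differed between the MI libraries themselves. Interferon-response genes had a median of -0.52, 35 of 38 were negative and 0 passed. MI lay below Sham for 16 (42.1%), beside 13.8% of all genes tested. The mean level of the list was 4.18, 5.17 and 4.17 in MI 1, 2 and 3 and 5.18, 5.37 and 5.19 in Sham. MI 2 thus lay next to Sham, and the median was -0.87 without it. Irf7, the factor that amplifies the interferon response, was at 94.8, 119 and 86.6 CPM in Sham and at 37.1, 64.8 and 24.6 CPM in MI (-1.25 ± 0.51, adjusted p = 0.215). Without Sham-E 1, 7 of the 38 fell (18.4%), beside 3.78% of all genes tested, and with only the 6 libraries 0 fell.

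Genes induced by glucocorticoids had a median of 0.91, with 20 of 22 positive and 0 past the threshold. MI lay above Sham without overlap for 7 (31.8%), beside 13.4% of all genes tested. The mean level of the list was 5.90, 5.16 and 6.28 in MI and 4.82, 5.06 and 5.10 in Sham. MI 2 was thus again the closest to Sham. Il1r2, the decoy receptor of interleukin-1, was at 36.6, 29.5 and 26.8 CPM in Sham and at 216, 80.8 and 552 CPM in MI (3.19 ± 0.80, adjusted p = 0.0822). Mt1, metallothionein 1, was at 21.8, 20.2 and 27.2 CPM in Sham and at 71.5, 33.4 and 108 CPM in MI (1.62 ± 0.41, adjusted p = 0.0836). Without MI 3 the median of the list was 0.54. Lcn2 and Il1r2 of this list are also neutrophil genes. Without Sham-E 1, 6 of the 22 rose (27.3%), and with only the 6 libraries 1 rose, beside 4.12% and 1.15% of all genes tested.

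Immediate early genes, which are switched on within minutes of a stimulus, had a median of -0.75, with 0 of 29 past the threshold. MI lay below Sham for 15 (51.7%) and above for 2 (6.9%), beside 13.8% and 13.4% of all genes tested. Jun was at 111, 177 and 252 CPM in Sham and at 58.6, 44.9 and 67.5 CPM in MI (-1.66 ± 0.41, adjusted p = 0.0786). Junb was at 360, 457 and 376 CPM in Sham and at 256, 162 and 137 CPM in MI (-1.10 ± 0.30, adjusted p = 0.0941). These genes also respond to the handling of tissue, and no source used here states the time from death to lysis. Without Sham-E 1, 5 of the 29 fell (17.2%), and with only the 6 libraries 4 fell, beside 3.78% and 1.24% of all genes tested.

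Of 28 cytokine, chemokine and inflammation genes 0 passed, 13 were positive and the median was -0.17. MI lay above Sham for 4 (14.3%) and below for 6 (21.4%), beside 13.4% and 13.8% of all genes tested. Without Sham-E 1, 2 rose (7.14%) and 1 fell (3.57%), beside 4.12% and 3.78% of all genes tested. With only the 6 libraries 1 rose and 1 fell. Nos2, inducible nitric oxide synthase, which was singled out after its values were seen, was at 0.0853, 0.0410 and 0.0397 CPM in Sham and at 0.798, 0.694 and 1.97 CPM in MI (4.26 ± 2.08, adjusted p = 0.284, or 0.0162 without Sham-E 1), and it was at 8.74 CPM in Sham-E 1. Ptgs2, cyclooxygenase 2, was at 9.6, 13.1 and 15.2 CPM in Sham and at 1.13, 0.496 and 1.28 CPM in MI (-3.69 ± 1.00, adjusted p = 0.0986, or 0.0169 without Sham-E 1). Il1b was at 110, 118 and 106 CPM in Sham and at 23.7, 75.1 and 14.2 CPM in MI (-1.56 ± 0.85, adjusted p = 0.328).

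**Figure D4:**
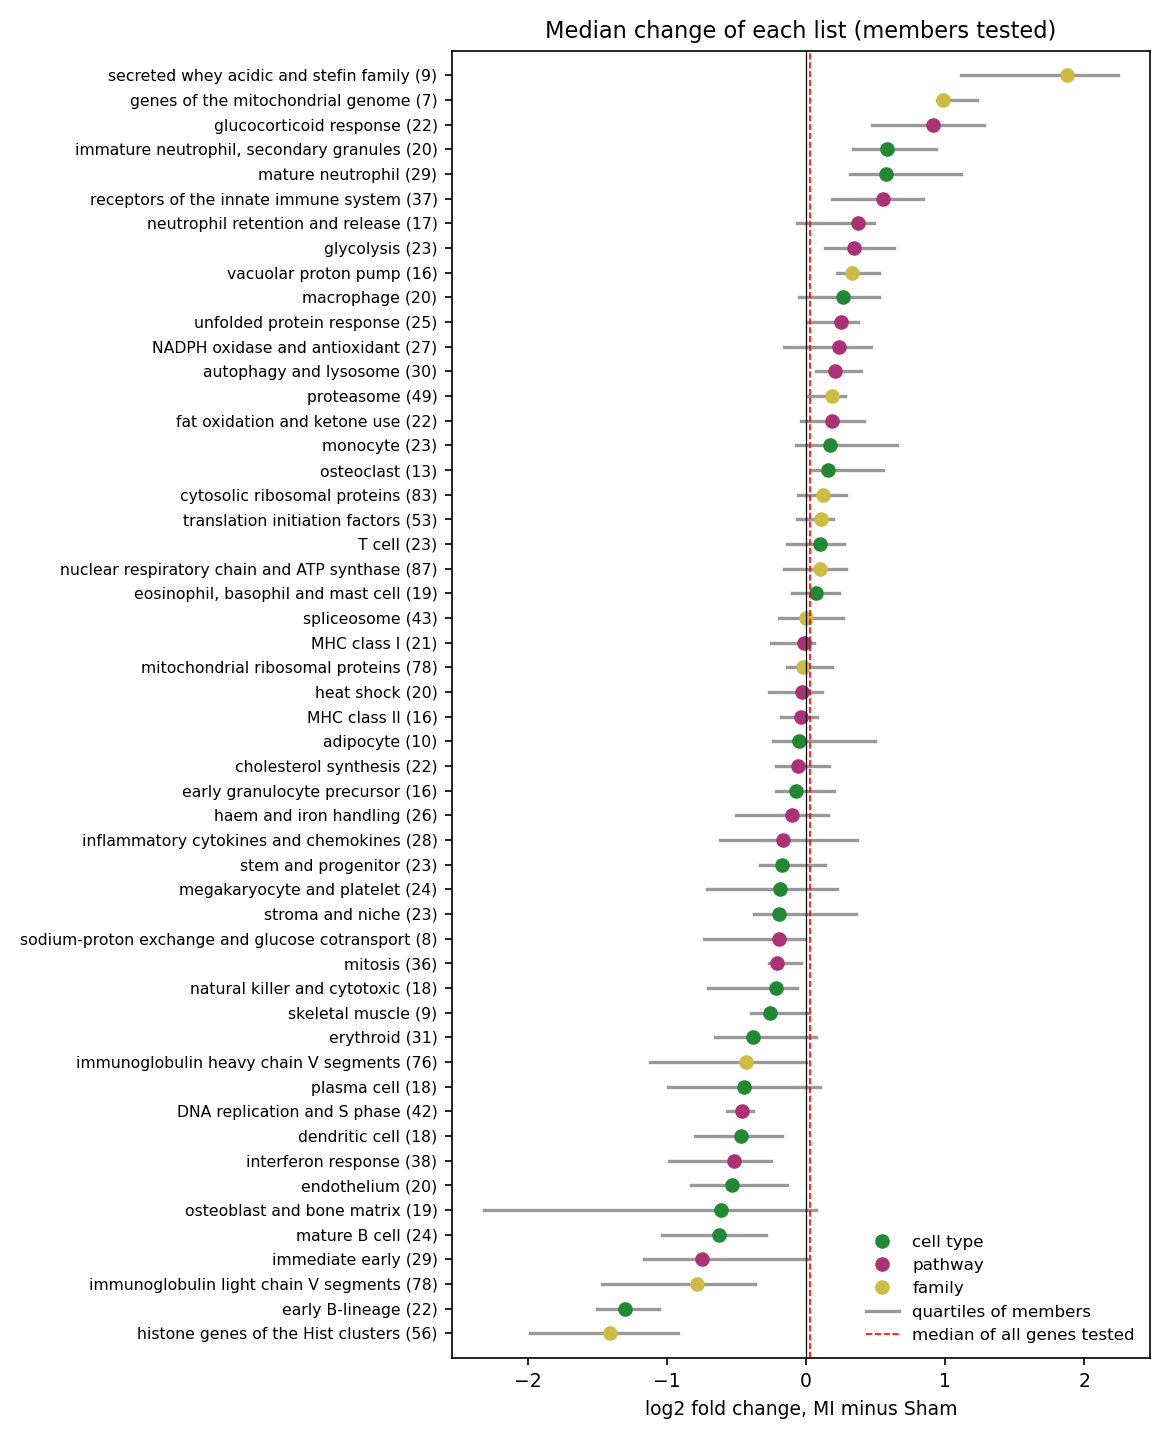
Median log2 fold change, MI minus Sham, of the tested members of each of the 53 lists except the zinc finger genes named Zfp. Points are the medians, with the number of members tested in brackets, and grey lines are the quartiles of the members. The dashed line is the median of all genes tested, 0.02. The list left out had a median of -0.03. The whey acidic and stefin family is highest at 1.88, and the Hist genes at -1.41 and the early B-lineage genes at -1.30 are lowest.

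Of the lists for niche cells, that of bone had the lowest median. Of 19 osteoblast and bone matrix genes tested of 25, 1 fell, Bglap (osteocalcin, log2 fold change -3.47), and the median was -0.61. MI lay below Sham for 9 (47.4%) and above for 1 (5.26%), beside 13.8% and 13.4% of all genes tested. Without Sham-E 1, 5 fell (26.3%) and 1 rose (5.26%), beside 3.78% and 4.12% of all genes tested. With only the 6 libraries 4 fell and 1 rose. Alpl, alkaline phosphatase of osteoblasts, was at 3.41, 3.57 and 5.20 CPM in Sham and at 0.378, 0.744 and 0.888 CPM in MI (-2.60 ± 0.73, adjusted p = 0.0994). Col1a1 was at 43.6, 42.4 and 84.1 CPM in Sham and at 8.10, 6.15 and 12.5 CPM in MI (-2.67 ± 0.57, adjusted p = 0.0620). In Sham-E, Col1a1 was at 5.92, 14.3 and 27.8 CPM, so the Sham group was the high one. How much bone each sample held is not known, and its part in these values was not tested. Skeletal muscle genes, a sign of tissue outside the marrow, had 9 of 19 tested and a mean level of 1.12 to 1.59 in Sham and 0.89 to 1.18 in MI. Endothelial markers had a median of -0.53 over 20 tested, with 0 past the threshold.

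Erythroid genes varied more within MI than between the groups. Of 31 tested, 0 passed and the median was -0.38. It was -0.70 without MI 3 and -0.09 without MI 2. Hba-a1, alpha globin, was at 5602, 6137 and 7838 CPM in Sham and at 6027, 4298 and 15152 CPM in MI (0.38 ± 0.53, adjusted p = 0.725). Klf1, the main erythroid transcription factor, was at 195, 193 and 237 CPM in Sham and at 116, 70.2 and 80.5 CPM in MI (-1.23 ± 0.67, adjusted p = 0.332). Globin mRNA was thus high in MI 3 while Klf1 was low in all MI libraries. Alpha globin has a near-identical copy, Hba-a2, so the 2 values are not independent.

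Several genes of interest for retention in the marrow and for glucose transport gave small or uncertain differences. Cxcr4, the receptor that holds neutrophils and B-cell precursors in the marrow, was at 281, 371 and 344 CPM in Sham and at 360, 389 and 358 CPM in MI (0.15 ± 0.21, adjusted p = 0.717). Its ligand Cxcl12 was at 188, 82.5 and 105 CPM in Sham and at 129, 73.1 and 120 CPM in MI (-0.22 ± 0.51, adjusted p = 0.843). The groups overlapped for both. Csf3r, the receptor of the granulocyte growth factor G-CSF, had a log2 fold change of -0.53 ± 0.30 (adjusted p = 0.341). Cxcr2, which draws mature neutrophils out of the marrow, had 0.46 ± 0.23 (adjusted p = 0.282). Il7, the growth factor of early B cells, was at 0.207 ± 0.0792 CPM in Sham and at 0.423 ± 0.353 CPM in MI (SD, n = 3, adjusted p = 0.476), too low to read. Slc5a2, the sodium-glucose cotransporter SGLT2, was at 0.600 ± 0.215 CPM in Sham and at 0.181 ± 0.159 CPM in MI (adjusted p = 0.326). Slc5a1 was not tested because its counts were too low.

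The most extreme fold changes came from gene models that lie inside another gene. B430305J03Rik (chr3:61362250-61365951), which lies wholly within Rap2b on the other strand, was at 9.85, 8.21 and 7.19 CPM in Sham and at 0, 0.149 and 0 CPM in MI. It had 612 counts over Sham and 3 over MI, a 180-fold ratio with a 95% exact counting interval of 61.2 to 873, and an adjusted p of 0.00095. It was at 7.74, 3.42 and 4.58 CPM in Sham-E and at 4.44, 5.72 and 6.32 CPM in MI-E, so the MI libraries alone were near 0. In the test of whether the difference changed with EMPA it was the only gene past the threshold (0.00661% of those tested). That test could not judge genes with counts almost only in MI, such as E130208F15Rik and Gm20463. Rap2b itself was at 34.2 CPM in Sham and at 48.5 CPM in MI (0.51 ± 0.13, adjusted p = 0.0735). Gm20402, within Foxo1 for 98.1% of its exons, had 234 counts in Sham and 3 in MI, a 68.7-fold ratio with an interval of 23.2 to 335.

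In the other direction E130208F15Rik, within Sdhaf1, had 0 counts in Sham and 274 in MI, which is at least 104-fold higher against a floor of 3 counts over the group. Gm26790, which shares 83.5% of its exons with Zfp507, had 0 and 225 counts, at least 85.2-fold higher. Gm20463, within Rnf5, had 0 and 124 counts, at least 46.9-fold higher. Sdhaf1, Zfp507 and Rnf5 had adjusted p-values of 0.937, 0.325 and 0.538. Rsc1a1, which lies wholly within Ddi2 on the same strand, rose by 1.13 ± 0.19 (adjusted p = 0.0330), and Ddi2 had 0.44 ± 0.19 (adjusted p = 0.235). No source used here states whether counting used the strand, so reads of such models and of the gene around them cannot be told apart. Of the 63 called genes 8 shared over 50% of their exons with another gene, beside 488 of 15099 genes tested. The share was thus higher among the called genes. Counting intervals cover counting error only.

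Deposited TPM values moved differently from counts for some genes. Over 9306 genes with a mean TPM of at least 5 in both groups, the log2 ratio of MI to Sham was 0.16 lower on the TPM scale at the median, and 176 genes (1.89%) were more than 0.5 away from that. Of the abundant genes among them 2 are given, chosen after their values were seen. Ltf went from 2685 to 5532 TPM while its counts went from 4643 to 5696 CPM. Rps14 went from 4873 to 3697 TPM while its counts went from 807 to 1047 CPM. The direction for Rps14 thus depended on the unit, and the cause was not tested.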

How the data were processed

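RNA from bone marrow was sequenced in 12 libraries, 3 in each of 4 groups. Expected counts and TPM values, one table each, were deposited by the authors; per the submitters' processing notes, CASAVA 1.8, STAR 2.4.0j, RSEM and the build mm10 were used, with roles not given in the sources used here. The deposited expected counts are whole numbers and are not normalized. Genes passing filterByExpr were tested with edgeR 4.0.16 (R 4.3.3): TMM scaling, robust quasi-likelihood fit with a mean for each group, 8 residual degrees of freedom, Benjamini-Hochberg adjustment over all genes, threshold 0.05. CPM values use TMM-scaled totals. Fold changes are MI over Sham, with SE from the fit.

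Deposited TPM values, scaled by transcript length by the authors, served for length checks and alternatives. Insert length was estimated from the ratio of TPM to counts. Columns were matched to groups by name. The method was tested on simulated data with changes planted between MI and Sham. Those data held no outlying library and no group difference tied to insert length or GC content, so that test cannot judge these.

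Full values may be given for the 15 lowest p-values in each direction among genes whose MI and Sham libraries do not overlap. Of the 63 calls, 16 were left out by name (clone-type names and receptor segments), and 27 that rose and 20 that fell met the rule. From each list up to 4 members with the smallest p and 3 with the highest level may be named. The comparison, its gene lists and the genes read in every case were chosen with earlier results of these data known. Of the genes read in every case, 1 is not reported here. With 21175087 to 24606783 counts per library, values under 1 CPM rest on few counts. Alternatives were other scalings, filters, tools (DESeq2 1.42.0, limma 3.58.1), units, a replicate block and leaving out each library.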

Additional observations from a re-analysis of the deposited data

Results flagged for a closer look

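The difference between MI and Sham for B430305J03Rik differed from that between MI-E and Sham-E by -7.39 on the log2 scale (SE 0.79, edgeR adjusted p = 0.0072). It was the only gene of 15119 (0.00661%) past the threshold in this test of the interaction. B430305J03Rik had 0, 0.149 and 0 CPM in MI and at least 3.42 CPM in each of the 9 other libraries. The test could not judge genes with counts almost only in MI. E130208F15Rik and Gm20463 were at 0 in Sham and Sham-E and at 0 to 0.0455 CPM in MI-E. Their interaction SEs were 15581 and 16580.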

How the results depend on the processing

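The 63 calls became 63 with RLE scaling, 59 with the upper quartile, 48 without immunoglobulin, haemoglobin and mitochondrial genes, 78 with a filter of 1 CPM in 3 libraries, 46 with limma-voom and 64 without robust estimation. They became 104 with total counts, 156 with every gene that had a count, 1016 with DESeq2, 282 on log2(TPM + 1), 269 on log2(TPM + 0.1), 344 with only the MI and Sham libraries, 605 at a threshold of 0.10 and 124 with GC content and length offsets. Leaving out each library gave 1 to 1224. With the column number as a replicate block, 1 gene passed. Numbers are shared between groups. After the group mean of each gene was taken off, the deviations of same-numbered libraries correlated at only -0.26 to 0.22. Same-numbered libraries were therefore not treated as pairs. For the interaction the count of 1 became 152 with DESeq2, 0 with limma-voom (2070 at an unadjusted p under 0.05), 7 and 14 on log2(TPM + 1) and log2(TPM + 0.1), 0 with the replicate block (1042 at an unadjusted p under 0.05), and 1 to 150 on leaving out each library, 150 of them without MI 1; the fit of 6 libraries cannot give it. For MI against Sham, B430305J03Rik passed in 26 of 26 alternatives at the threshold of 0.05, and none of the 63 called genes changed direction in any of them. Its interaction did not pass with limma-voom or with the replicate block. List medians near 0 changed sign, such as T cells (-0.11 to 0.27) and ribosomal proteins (-0.17 to 0.28), their lowest values on log2(TPM + 0.1), where the median of all genes was itself -0.15. Of the values of the 63 called genes under alternatives, 1069 stayed past the threshold and 626 did not, with the same direction. The 1069 include all 63 at the threshold of 0.10, which is the same fit at a looser cut, so those had to pass. Of list medians, 1342 moved by less than the spread between libraries and 86 by more. The cause of these differences was not tested. Depth limits genes under 1 CPM.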

Other observations

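Some values outside the named rule were singled out after they were seen. AY036118, a model within the ribosomal RNA model CT010467.1 on the other strand, was at 527, 860 and 826 CPM in Sham and at 0 in all 3 MI libraries. It was at 887, 86.7 and 0 CPM in Sham-E and at 576, 324 and 483 CPM in MI-E, and its adjusted p in edgeR was 0.0693. CT010467.1 was at 2771, 5544 and 5415 CPM in Sham and at 4823, 4972 and 5009 CPM in MI.

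Saa3, an acute-phase protein made by macrophages and other cells, was at 0.299, 0.451 and 0.238 CPM in Sham and at 20.1, 2.48 and 36.5 CPM in MI (edgeR adjusted p = 0.158). It was at 59.2 CPM in Sham-E 1. Erfe, the erythroid hormone that lowers hepcidin, was at 1.88, 0.862 and 1.43 CPM in Sham and at 57.2, 10.2 and 0.789 CPM in MI (edgeR adjusted p = 0.140), so MI 3 was below Sham and the other MI libraries above it.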
